A study of Mus musculus with 10 samples.

Results

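The genes described here encode the mitochondrial ribosomal proteins, chosen as the rows of the expression table whose symbol starts with Mrpl or Mrps followed by a digit. This gave 64 of the 10141 genes in the table, 39 named for the large subunit (Mrpl) and 25 for the small subunit (Mrps). RNA sequencing set GFP+ leukaemia cells against CD11b+ myeloid cells without GFP, both taken from leukaemic marrow, in a study titled for how glucose is shared out there. The leukaemia cells carried MLL-AF9, a leukaemia-driving fusion of a histone methyltransferase gene with AF9, and a GFP reporter. CD45.1 recipient mice received them by tail vein, and marrow was taken once GFP+ cells made up 2% of blood cells. The myeloid cells came from the marrow of such leukaemic mice too, and the series design text calls them CD45.2-negative, so both groups had been exposed to leukaemia and no marrow of healthy mice was analysed here. Each group had 5 libraries. The labels do not state whether libraries came from separate mice, the age of the mice or how many leukaemia clones were injected, so p-values measure the spread between these libraries, which may be technical. All 10 libraries share a genotype label of MLL-AF9/GFP and a cell type label of leukaemia cells, and the groups were taken from the titles.

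Mitochondria keep a small genome of their own, and its messenger RNAs, all for subunits of the respiratory chain and ATP synthase, are translated by a dedicated ribosome inside the organelle. The RNA parts of that ribosome come from the mitochondrial genome, whereas its proteins are encoded in the nucleus, made in the cytosol and imported. Some of these proteins descend from bacterial ribosomal proteins and others are found only in mitochondria. Acute myeloid leukaemia cells are known to be sensitive to inhibitors of mitochondrial translation.

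All values start from the authors' normalised, variance-stabilised table, which is on a log2 scale that flattens differences between genes with few reads. Normalised reads, meaning reads divided by the library's size factor, were computed back from that table. A log2 difference is the leukaemia mean minus the myeloid mean of the deposited values, and a fold is the ratio of mean normalised reads. The 64 genes together held between 24617 and 85273 recovered reads per library, out of 24099551 to 32247804 in the table. Markers of the MLL fusion programme (5 of 5 with values: Hoxa9, Hoxa10, Meis1, Cd34, Kit) summed to 17800 to 24600 normalised reads in leukaemia libraries and 1490 to 2630 in myeloid libraries. Those of CD11b+ neutrophilic cells (7 of 7, among them Itgam, Ly6g and S100a9) summed to 51600 to 58000 in leukaemia and 1790000 to 2920000 in myeloid libraries. The myeloid libraries differed among themselves in other markers. MHC class II genes (4 of 4) summed to 623 to 1910 in leukaemia, and to 36900 to 57600 in myeloid replicates 1, 3 and 5 but 4170 to 4180 in replicates 2 and 4. The 5 of 7 monocyte and macrophage markers with values followed the same division (11500 to 13300 in leukaemia, 9730 to 48100 in myeloid). B cell markers (6 of 6) summed to 465 to 591 in leukaemia and 483 to 2250 in myeloid libraries. T and NK cell markers (6 of 6, Cd3g at 0 in every leukaemia library) summed to 2870 to 5870 in leukaemia and 903 to 2130 in myeloid libraries. The 2 of 7 erythroid markers with values summed to 2.55 to 62.0 in leukaemia and 5.91 to 245 in myeloid libraries, and the 1 of 4 megakaryocyte markers had 34.7 to 140 in leukaemia and 111 to 257 in myeloid libraries. B cell and erythroid markers were also higher in myeloid replicates 1, 3 and 5 (1030 to 2250 and 163 to 245) than in replicates 2 and 4 (483 to 537 and 5.91 to 13.9). The part of these other cell types in the results was not tested, and results are also given without myeloid replicates 2 and 4.

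Among the mitochondrial ribosome genes with values, almost all were higher in leukaemia cells than in myeloid cells. Of 63 members tested, 61 rose and 2 fell, and the median log2 difference was 0.48, against -0.16 over all 8079 tested genes (limma, Benjamini-Hochberg adjusted p under 0.05). Among all tested genes 99.8% were called, 49.1% higher and 50.7% lower. No gene of the table had an unadjusted p above 0.243, so a call by itself says little about a member, and its direction and size say more. The rows of the table also ran nearly in order of that p (Spearman rho = 0.979). The table may thus have been selected for genes that differ between these groups, which was not tested. The fold was 2 or more for 28 of the 64 members, from 1.5 to 2 for 19, from 1 to 1.5 for 15 and under 1 for 2. Over all tested genes 22.4% were at least 2-fold higher. The 5 leukaemia values all lay above the 5 myeloid values in 55 members and all below in 1. Over all tested genes 86.8% did not overlap, 42.4% with leukaemia higher and 44.3% with leukaemia lower. Without myeloid replicates 2 and 4 there were 61 higher and 1 lower, with a median of 0.51. Fewer cells of a type and less RNA per cell cannot be told apart in bulk samples, and no normal immature cells were analysed here, so leukaemia and maturation stage cannot be told apart.

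**Figure D1:**
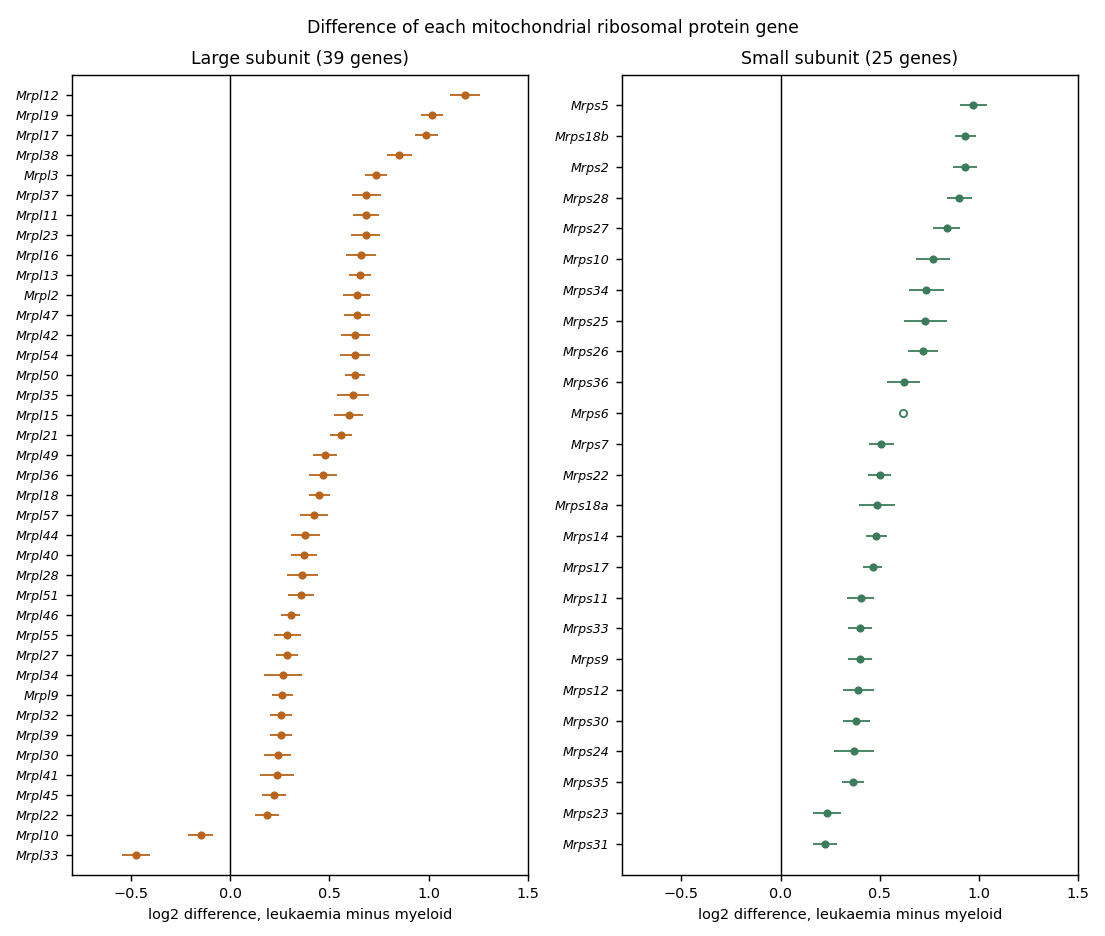
Log2 difference of the deposited values, leukaemia minus myeloid, for each of the 39 large subunit and 25 small subunit genes, with bars of 1 standard error from limma. Mrpl33 (-0.47) and Mrpl10 (-0.15) lie left of 0, all others lie right of it, and Mrps6, drawn open, was below the filter on low values and has no error bar.

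The annotation used here lists 78 protein-coding genes with such symbols, and the other 14 were not analysed here (Mrpl1, Mrpl4, Mrpl14, Mrpl20, Mrpl24, Mrpl43, Mrpl48, Mrpl52, Mrpl53, Mrpl58, Mrps15, Mrps16, Mrps18c and Mrps21). Counts in this text therefore describe the 64 with values and not the whole ribosome. If the table was selected for genes that differ, those without values may be genes that differed little, which was not tested.

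Both subunits were mostly higher in leukaemia. Their medians lay close together, whereas the ratio of summed reads was larger for the small subunit, and the difference between the subunits was not tested. Of the large subunit genes 37 rose and 2 fell (median log2 difference 0.47, 39 tested), and of the small subunit genes 24 rose and 0 fell (median 0.49, 24 tested). The median fold was 1.66 for the large subunit, with a range of 0.666 to 3.59, and 1.80 for the small subunit, with a range of 1.25 to 4.81. The summed normalised reads of large subunit genes were 38992 ± 2276 in leukaemia libraries and 24356 ± 1942 in myeloid libraries (mean ± SD over 5 libraries each, as throughout), a ratio of 1.6. Those of small subunit genes were 20728 ± 1336 in leukaemia and 10664 ± 986 in myeloid libraries, a ratio of 1.94. Without Mrpl33 the ratio of the large subunit was 1.73.

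In every library the mean value of the large subunit genes lay above that of the small subunit genes. The gap was 0.174, 0.165, 0.154, 0.172 and 0.181 log2 units in leukaemia replicates 1 to 5, and 0.216, 0.297, 0.280, 0.322 and 0.230 in myeloid replicates 1 to 5. It was narrower in each leukaemia library than in any myeloid library. It averaged 0.169 ± 0.0101 in leukaemia and 0.269 ± 0.0449 in myeloid cells. These means run over genes of unequal length and expression, so the gap describes a set of genes and not the makeup of the particle. The large subunit mean includes Mrpl33 and Mrpl10, the members that fell, and the gap without them was not computed.

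**Figure D2:**
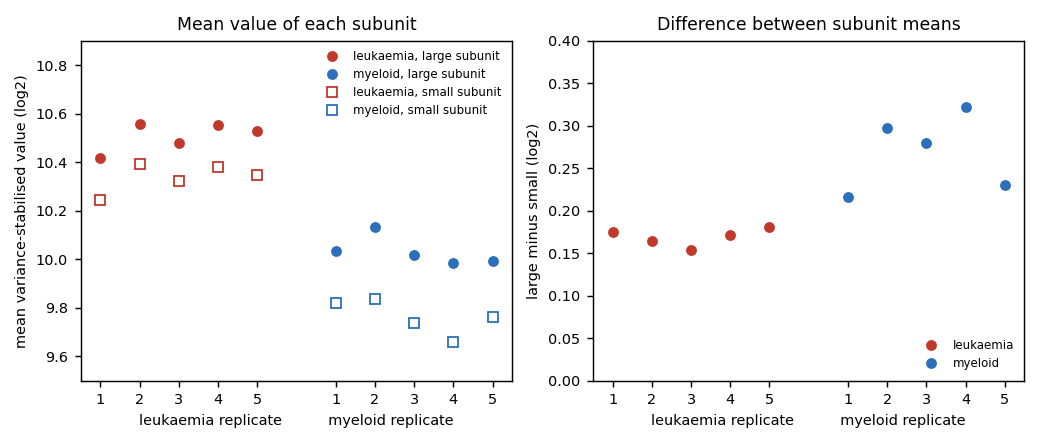
Left, mean variance-stabilised value (log2) over large subunit genes (filled circles) and small subunit genes (open squares) in each of the 5 leukaemia and 5 myeloid libraries. Right, the large minus the small mean in each library, from 0.154 to 0.181 in leukaemia and from 0.216 to 0.322 in myeloid libraries.

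Within each group a few libraries held most of the extreme values. Leukaemia replicate 1 was the lowest of its group for 37 of the 64 genes, and replicate 2 the highest for 25. In the myeloid group replicate 2 was the highest for 33 genes and replicate 4 the lowest for 30. Replicates 2 and 4, which shared the low MHC class II level, thus stood at opposite ends. Cytosolic ribosomal protein genes took 5.62% of the table's normalised reads in leukaemia replicate 1, the lowest of its group, and 7.37% in replicate 2, the highest. In myeloid replicate 4 they took 1.52%, the lowest of its group, and in replicate 2 they took 1.91%, against 2.08% in the highest, replicate 1. The part of this in the shifts of the libraries was not tested. The coefficient of variation was larger in myeloid than in leukaemia libraries for 55 of the 64 genes (85.9%, against 72.7% of all tested genes), with medians of 9.80% in leukaemia and 14.4% in myeloid cells. The 64 genes took 0.266% ± 0.0144 of the table's normalised reads in leukaemia libraries and 0.1% ± 0.00799 in myeloid libraries, a ratio of 2.65, with a range of 0.242% to 0.278% in leukaemia and 0.0873% to 0.109% in myeloid libraries. Their summed normalised reads, 59719 ± 3603 in leukaemia libraries and 35020 ± 2692 in myeloid libraries, differed by a ratio of 1.71.

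The large subunit is described first, by the parts of the particle. At its flank stands a flexible stalk that recruits translation factors. Mrpl12, which encodes the stalk protein that also binds mitochondrial RNA polymerase, had the highest log2 difference of all members. It had 1304, 1713, 1506, 1607 and 1578 normalised reads in leukaemia replicates 1 to 5, against 401, 580, 414, 372 and 380 in myeloid replicates 1 to 5. Every leukaemia value was over the highest myeloid value by a wide margin, a 3.59-fold difference (log2 difference 1.18, SE 0.0755, limma adjusted p = 7.07e-09). Myeloid replicate 2 was the high one of its group. An antisense transcript, Gm16755, overlaps 13.1% of its exonic bases. Mrpl11, at the base of the stalk, was 2.54-fold higher, and Mrpl54, a stalk protein without a bacterial counterpart, was 2.33-fold higher.

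Mrpl10 stood apart from these stalk genes. It encodes the protein that ties copies of the Mrpl12 protein to the particle. It had 1361, 1362, 1255, 1451 and 1229 normalised reads in leukaemia replicates 1 to 5, against 1398, 1832, 1473, 1520 and 1448 in myeloid replicates 1 to 5. The groups overlapped, since leukaemia replicate 4 lay above myeloid replicates 1 and 5. The leukaemia mean was 0.868 times the myeloid mean, a narrow call (log2 difference -0.15, SE 0.0638, limma adjusted p = 0.0369). This call was lost without myeloid replicates 2 and 4 (-0.08, limma adjusted p = 0.161) and without leukaemia replicate 2, 3 or 5 or myeloid replicate 2 or 4 (from 0.0509 to 0.0909). It was also lost after quantile normalisation (-0.04, limma adjusted p = 0.551), with TMM factors (-0.09, limma adjusted p = 0.287) and with adjustment over all annotated genes (limma adjusted p = 0.253), and the direction turned after scaling to the table total (0.44, limma adjusted p = 5.55e-05). An antisense transcript, Gm11574, overlaps 14.1% of its exonic bases in the annotation used, and without a stated strand setting their reads cannot be told apart.

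Mrpl33, the gene of a small protein of bacterial descent, was the other member that fell. It had 1905, 2099, 1867, 1998 and 1851 normalised reads in leukaemia replicates 1 to 5, against 2709, 3500, 2832, 3016 and 2534 in myeloid replicates 1 to 5. The highest leukaemia library lay below the lowest myeloid library, and Mrpl33 was the only member with that order. Its leukaemia mean was 0.666 times its myeloid mean (log2 difference -0.47, SE 0.0718, limma adjusted p = 3.15e-05). Its call and direction were kept without myeloid replicates 2 and 4 (-0.38, limma adjusted p = 4.04e-05), whereas after scaling to the table total it no longer passed and its sign turned (0.06, limma adjusted p = 0.41). It made up 3.26% of all mitochondrial ribosomal protein reads in leukaemia and 8.33% in myeloid cells. Another annotated transcript on its strand, Gm43809, covers 3.6% of its exonic bases.

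Mrpl19 and Mrpl17, both of bacterial descent, had the next highest log2 differences of the large subunit (1.02 and 0.99). Mrpl19 had 1663, 1886, 1765, 1864 and 1851 normalised reads in leukaemia replicates 1 to 5, and 618, 752, 564, 675 and 663 in myeloid replicates 1 to 5, without overlap (2.76-fold). Its 3' end is antisense to Gcfc2, which shares 36.0% of its exonic bases, so its reads are uncertain. Mrpl17, near the mouth of the tunnel through which the new chain leaves, had 1402, 1661, 1407, 1538 and 1394 in leukaemia and 609, 469, 535, 478 and 511 in myeloid libraries (2.85-fold). Leukaemia values were again all above the myeloid ones. Of the genes around the exit tunnel, Mrpl45 and Mrpl22 had the lowest folds. Mrpl45 encodes the protein that holds the ribosome against the inner membrane, and it was 1.27-fold higher (829 ± 65.5 in leukaemia and 651 ± 78.9 in myeloid, limma adjusted p = 0.00409). Mrpl22, whose product lines the tunnel, was 1.31-fold higher (391 ± 38.8 in leukaemia and 298 ± 48.2 in myeloid, limma adjusted p = 0.00975). The groups overlapped for both, and Mrpl22 did not pass after quantile normalisation (limma adjusted p = 0.753) or with adjustment over all annotated genes (limma adjusted p = 0.0668). Of the 7 exit tunnel genes tested, 7 rose and 0 fell, with a median log2 difference of 0.38.

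Mrpl38, a mitochondria-specific protein of the central protuberance, the crest of the large subunit that faces the small one, was 3.06-fold higher, at 783 ± 82.6 normalised reads in leukaemia libraries and 256 ± 39.3 in myeloid libraries. The other central protuberance genes lay at or below 1.6-fold, and the 6 tested members, all called higher, had a median log2 difference of 0.34. Mrpl3, whose product reaches toward the catalytic centre, was 2.15-fold higher (1377 ± 115 in leukaemia and 641 ± 33.2 in myeloid). Mrpl37, a mitochondria-specific gene, was 2.09-fold higher. At the other end stood Mrpl30 (1.26-fold, 1326 ± 158 in leukaemia and 1048 ± 103 in myeloid) and Mrpl41 (1.36-fold, 548 ± 112 in leukaemia and 404 ± 74.6 in myeloid), for both of which the groups overlapped. Mrpl41 lost its call after quantile normalisation (limma adjusted p = 0.341), with adjustment over all annotated genes (0.125) and without leukaemia replicate 4 (0.0507).

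By structural name, which marks each protein as shared with bacteria or as mitochondria-specific, the large subunit genes shared with bacteria had a median fold of 1.92 (23 rose and 2 fell of 25), and the mitochondria-specific ones had 1.57 (16 of 16 rose, counting Mrps30 and Mrps18a, whose products sit in the large subunit despite their symbols). In the small subunit the order was the other way round, with 1.77 for genes shared with bacteria (11 of 11 tested rose) and 2.09 for mitochondria-specific genes (10 of 10 rose). The mitochondria-specific classes hold Mrps18a and Mrps18b by that naming, although both are related to bacterial S18, so the classes are of names and not strictly of descent. The difference between these classes was not tested.

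**Figure D3:**
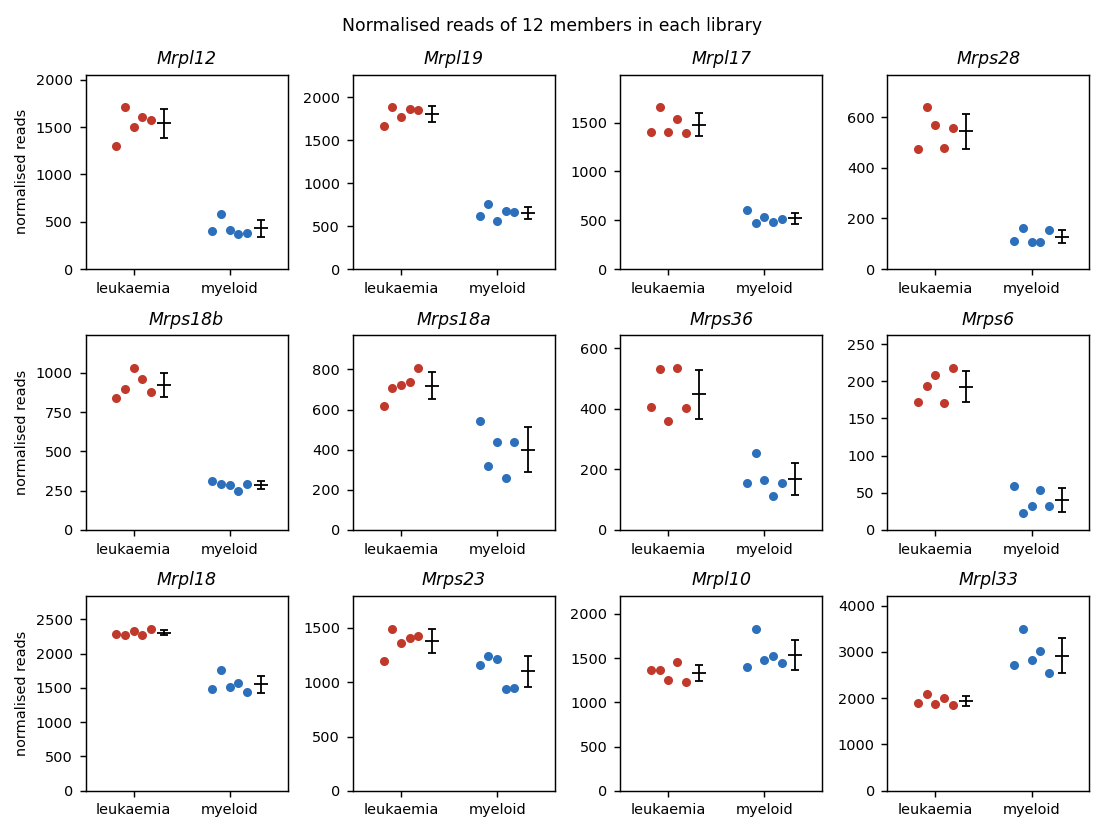
Normalised reads of 12 members in each library, with the mean and SD beside the points, leukaemia left and myeloid right in each panel. In Mrpl12, Mrpl19, Mrpl17, Mrps28, Mrps18b, Mrps36 and Mrps6 the leukaemia points lie above the myeloid points, in Mrps23 and Mrpl10 the groups overlap, and in Mrpl33 every leukaemia point lies below every myeloid point.

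In the small subunit the 6 highest log2 differences belonged to Mrps5, Mrps18b, Mrps2, Mrps28, Mrps27 and Mrps10. Mrps5, whose product lies at the messenger RNA entry and affects reading accuracy, had 1142, 1336, 1352, 1263 and 1311 normalised reads in leukaemia replicates 1 to 5, against 449, 557, 464, 343 and 379 in myeloid replicates 1 to 5 (2.92-fold, limma adjusted p = 2.12e-08). Mrps2, of bacterial descent, was 3.09-fold higher (989 ± 97.3 in leukaemia and 320 ± 40.7 in myeloid). Mrps28 had 472, 640, 568, 479 and 557 in leukaemia libraries and 112, 161, 106, 108 and 155 in myeloid libraries. That is a 4.23-fold difference, although its log2 difference was only 0.90 because the scale flattens genes with few reads. The myeloid mean of Mrps28 (128) lay below the filter level of about 145 normalised reads, so it was tested only through its leukaemia values. Mrps27, which encodes an RNA-binding protein of the pentatricopeptide repeat kind, was 2.99-fold higher (787 ± 94.0 in leukaemia and 263 ± 42.6 in myeloid), with leukaemia replicate 1 the low library of its group. An antisense transcript covers 24.2% of its exonic bases. Mrps10, a protein of the head of the subunit, was 2.66-fold higher (752 ± 32.7 in leukaemia and 283 ± 94.4 in myeloid).

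Mrps6 had the highest fold of any member, 4.81, and was not tested because its mean lay below the filter. It had 172, 194, 209, 171 and 218 normalised reads in leukaemia and 59.5, 22.5, 31.7, 54.2 and 32.6 in myeloid libraries. The myeloid values rested on 19 to 51 reads per library, and the groups did not overlap. With no filter on low values it passed (limma adjusted p = 3.83e-07). Gm49711, a protein-coding gene on the same strand, shares 19.9% of its exonic bases, so some of these reads may belong to it.

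Mammals carry 3 versions of the bacterial S18 protein, of which Mrps18a and Mrps18b had values. Mrps18b had 837, 897, 1032, 959 and 875 normalised reads in leukaemia replicates 1 to 5 and 309, 294, 287, 247 and 295 in myeloid replicates 1 to 5 (3.21-fold, log2 difference 0.93). Mrps18a, whose product belongs to the large subunit, had 619, 708, 723, 735 and 808 in leukaemia and 543, 320, 437, 260 and 439 in myeloid libraries (1.80-fold, log2 difference 0.49). Neither overlapped between groups, and the Mrps18a values of the myeloid libraries were widely spread, with replicates 2 and 4 the low ones. An antisense transcript covers 30.5% of the exonic bases of Mrps18b, and the difference between the paralogues was not tested. Mrps30, also a protein of the large subunit, was 1.58-fold higher (724 ± 71.1 in leukaemia and 459 ± 73.6 in myeloid).

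The least raised small subunit genes also passed the test. Mrps31 was 1.41-fold higher (337 ± 13.4 normalised reads in leukaemia libraries and 239 ± 43.7 in myeloid libraries), a call lost after quantile normalisation. Mrps23 was 1.25-fold higher (1377 ± 112 in leukaemia and 1100 ± 146 in myeloid), and its groups overlapped. Mrps35 was 1.53-fold higher (774 ± 50.1 in leukaemia and 505 ± 55.8 in myeloid). Mrps12, which encodes the protein of the decoding centre, was 1.63-fold higher (674 ± 113 in leukaemia and 414 ± 67.1 in myeloid). Mrps24, at the messenger RNA entry, was 1.6-fold higher (602 ± 120 in leukaemia and 377 ± 105 in myeloid) and its groups overlapped, with leukaemia replicates 1 and 3 and myeloid replicates 1 and 2 in a common range. Mrps36 bears a ribosomal name, but its product is now known as a subunit of the alpha-ketoglutarate dehydrogenase complex. It had 406, 532, 360, 535 and 402 normalised reads in leukaemia and 156, 253, 166, 112 and 155 in myeloid libraries (2.65-fold, limma adjusted p = 1.11e-05). With subunits assigned by structure rather than by symbol, which moves Mrps30 and Mrps18a to the large subunit and leaves out Mrps36, 39 of 41 large subunit genes and 21 of 21 tested small subunit genes rose.

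Levels of different genes can be compared only per length, here as normalised reads per kilobase of the median annotated coding transcript. On that scale Mrpl33 was the most abundant member in both groups, at 4067 ± 217 in leukaemia and 6105 ± 773 in myeloid cells. Its place rests on a median transcript of 478 bases, whereas its annotated exons cover 7326 bases. By reads alone Mrpl18 (2306) lay above Mrpl33 (1944) in leukaemia, but not in myeloid cells (1554 and 2918). Next per kilobase in leukaemia came Mrpl30 (2003 ± 238) and Mrpl18 (1891 ± 33), which did not differ beyond their spread, and in myeloid cells Mrpl30 (1583 ± 156) and Mrpl18 (1275 ± 104). In myeloid cells Mrpl18 did not differ beyond its spread from Mrpl10 (1251 ± 140). Mrpl18, whose product sits in the central protuberance, had 2292, 2268, 2327, 2276 and 2365 normalised reads in leukaemia against 1488, 1765, 1509, 1571 and 1439 in myeloid libraries, a narrow range in leukaemia and no overlap. The median level was 642 per kilobase in leukaemia and 305 in myeloid cells. The lowest level in leukaemia was that of Mrpl47 (141), and in myeloid cells that of Mrps6 (47.4). The SD of the log2 level across the 64 genes was 0.986 in leukaemia and 1.23 in myeloid cells. The order of the genes was alike, with Spearman rho = 0.914 across genes, which share libraries and lengths and are not independent.

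**Figure D4:**
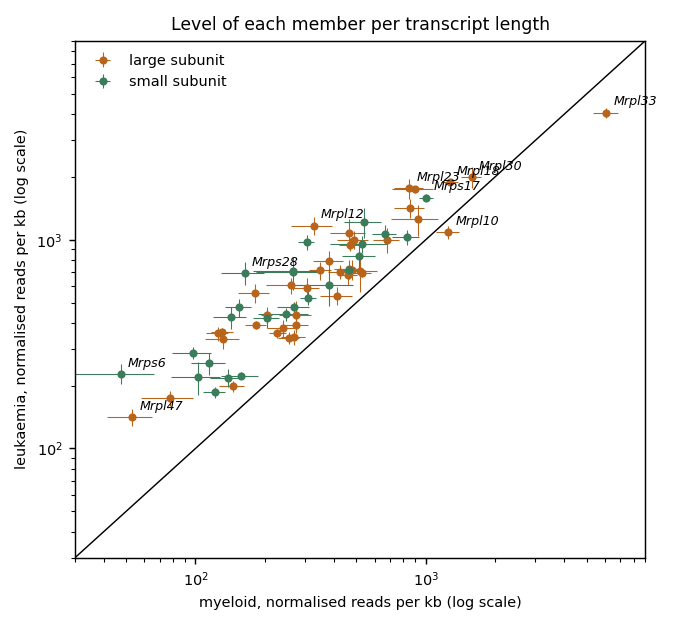
Normalised reads per kilobase of transcript of the 64 members, myeloid on the horizontal and leukaemia on the vertical axis (both log scales, mean and SD over 5 libraries), with the line of equal level. Mrpl33 and Mrpl10 lie below the line and all others above it. Mrpl33 lies farthest to the upper right and Mrps6 farthest to the left.

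Exonic bases were shared with another annotated gene in 26 of the 64 members. The share was over 25% in 4 of them, Mrps25 (69.8%, with Nr2c2), Mrps34 (63.4%, with Mapk8ip3), Mrpl19 and Mrps18b. The folds of Mrps25 (2.13) and Mrps34 (2.27) can therefore hold reads of their neighbours. In the 38 members without such an overlap, 38 rose and 0 fell. Both members that fell, Mrpl33 (3.6%) and Mrpl10 (14.1%), share some exonic bases and are left out of this count by its rule. The part of shared reads in their decreases was not tested.

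Promoter sequences were searched for letters that some of these genes hold in common upstream. A window from 250 bases before to 50 bases after the RefSeq start (build GRCm38.p6) was found for 56 of the 64 members. Each was searched on both strands for the letters of 4 motifs, GCGCNTGCG for nuclear respiratory factor 1 (NRF-1), CCGGAAGT for ETS factors such as GABP, AAGATGGC for YY1 and CACGTG for the E-box bound by Myc, and a promoter was counted once per motif even where matches on both strands overlapped. These factors are textbook regulators of nuclear genes for mitochondrial proteins. The NRF-1 letters were in 15 of 56 member promoters (26.8%), against 14.0% of the other genes of the table and 6.6% of 27025 promoters in all. The YY1 letters were in 12 (21.4%, against 4.4% and 2.9%) and the ETS letters in 8 (14.3%, against 8.5% and 4.0%). E-box letters were in 3 (5.4%, against 10.3% and 7.2%). At least 1 of the 4 motifs was in 32 of the 56 (57.1%, against 31.5% and 18.1%), so no motif was common to all members. Of 66 promoters of genes in the table with Rpl, Rps or Rplp symbols, 12 (18.2%) held ETS letters, against 8 of 56 among the members. That symbol rule can also match Rps6k kinase genes, and the difference in share was not tested. NRF-1 letters were in 9.1% of those 66, YY1 letters in 6.1% and E-box letters in 7.6%. The median log2 difference was 0.38 for the 15 tested members with NRF-1 letters and 0.48 for the 40 without. For the YY1 letters it was 0.48 in 12 with and 0.42 in 43 without, and for the ETS letters 0.47 in 8 with and 0.46 in 47 without. For the E-box letters it was 0.64 in 3 with, too few to describe a class, and 0.44 in 52 without. These differences were not tested. A match is a run of letters and not a binding site.

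Of these promoters, 4 are shown as the 150 bases before the start, 5' to 3' on the gene's strand, with motif letters in capitals. Mrpl12 and Mrpl17 are shown as strongly raised genes with NRF-1 letters, and Mrps27 as a raised gene with ETS letters. The full window of Mrps27 also held YY1 letters, outside the bases shown. Mrpl10 is shown as a gene with NRF-1 letters that was not raised on the deposited scale. They were chosen after their values were seen.
Mrpl12, chr11:120484487-120484636, plus strand: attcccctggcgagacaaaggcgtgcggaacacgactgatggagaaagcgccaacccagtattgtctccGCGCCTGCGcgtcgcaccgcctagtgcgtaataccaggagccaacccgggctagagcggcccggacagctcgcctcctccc
Mrpl17, chr7:105811088-105811237, minus strand: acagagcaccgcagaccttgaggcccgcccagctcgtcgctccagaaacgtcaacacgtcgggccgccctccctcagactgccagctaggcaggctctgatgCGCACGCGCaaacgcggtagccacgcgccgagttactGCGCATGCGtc
Mrps27, chr13:99344636-99344785, plus strand: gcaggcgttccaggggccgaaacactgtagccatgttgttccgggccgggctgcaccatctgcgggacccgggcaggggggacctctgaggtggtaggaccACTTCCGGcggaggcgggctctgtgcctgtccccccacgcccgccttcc
Mrpl10, chr11:97041432-97041581, plus strand: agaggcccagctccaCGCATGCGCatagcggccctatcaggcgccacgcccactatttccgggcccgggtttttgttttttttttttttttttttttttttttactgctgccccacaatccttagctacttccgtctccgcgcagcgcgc
The first base of the NRF-1 letters lay 81 bases before the start in Mrpl12, 48 and 11 in Mrpl17 and 135 in Mrpl10, and that of the ETS letters lay 49 bases before the start in Mrps27. The direction of Mrpl10 turned after scaling to the table total, and the part of these letters in the differences was not tested.

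Genes of such regulators went both ways. The list held 12 genes, of which 7 had values, and no ETS factor gene was among these 7. Of the 7 tested regulator genes, 2 rose and 5 fell in leukaemia. Myc (9.12-fold, 3992 ± 460 normalised reads in leukaemia libraries and 438 ± 117 in myeloid libraries) and Pprc1, a coactivator of mitochondrial biogenesis (4.15-fold), were higher. Max, the partner of Myc, fell to 2184 ± 113 in leukaemia, against 12549 ± 2028 in myeloid cells, and Mxd1, which competes with Myc for Max, fell to 1161 ± 99.5 in leukaemia, against 46282 ± 9150 in myeloid cells. Nrf1 (the NRF-1 gene) had 1871 ± 73.1 in leukaemia and 2360 ± 182 in myeloid cells, a log2 difference of -0.27, and Yy1 had 3698 ± 256 in leukaemia and 5700 ± 823 in myeloid cells, a log2 difference of -0.55. These last decreases rest on the scaling. With libraries brought to the same table total, Nrf1 was called higher (0.31, limma adjusted p = 0.000266) and Yy1 did not pass (0.02, limma adjusted p = 0.775), and after quantile normalisation neither passed.

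Genes that work with the mitochondrial ribosome went the same way with some exceptions. Mitoribosomal proteins whose symbols carry another name had values for 4 of 5, of which 3 rose and 1 fell. Gadd45gip1, a protein by the exit tunnel, was 2.84-fold, Chchd1 2.01-fold and Ptcd3 1.89-fold higher. Aurkaip1, a small subunit protein, fell to 1441 ± 201 normalised reads in leukaemia, against 2292 ± 274 in myeloid cells (log2 difference -0.52, limma adjusted p = 4.79e-05), and did not pass after scaling to the table total (-0.04, limma adjusted p = 0.725). Of 20 tested assembly factors 17 rose and 3 fell (median log2 difference 0.39). Among them were Rcc1l (4.09-fold) and Fastkd2 (3.55-fold), both needed for maturation of the large subunit RNA. The myeloid mean of Rcc1l (116 normalised reads) lay below the filter level, so it was tested only through its leukaemia values. The same held for Tfb1m (108) and Mrm2 (128), both counted among the assembly factors that rose. Rbfa, which acts on small subunit RNA, fell to 1523 ± 110 in leukaemia, against 4337 ± 831 in myeloid cells. This was a log2 difference of -1.23, and the decrease was kept after scaling to the table total (-0.85). Trub2, a pseudouridine synthase gene, was also lower (904 ± 53.0 in leukaemia and 1349 ± 120 in myeloid), a direction that turned after scaling to the table total (0.06).

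Translation factors had 11 of 12 tested members higher and 1 lower, with a median log2 difference of 0.59. Among those higher, Mtrf1, with a myeloid mean of 117 normalised reads, passed the filter only through its leukaemia values. Lrpprc, which keeps mitochondrial messenger RNAs stable, was 2.83-fold higher (2611 ± 250 in leukaemia and 921 ± 134 in myeloid), and Guf1, a back-translocation factor gene, was 2.85-fold higher (1203 ± 101 in leukaemia and 422 ± 92.2 in myeloid). Gfm2, a ribosome recycling factor gene, was the lower one (788 ± 50.6 in leukaemia and 949 ± 106 in myeloid, overlapping groups, log2 difference -0.17) and was called higher after scaling to the table total (0.38). All 16 tested members of the mitochondrial tRNA synthetase list rose (median 0.52). Tars2 (0.87, 2.48-fold) and Vars2 (0.87, 2.94-fold) had the highest log2 differences, whereas by fold Pars2 and Gatb (3.10-fold each) were higher among those tested. Pars2, with a myeloid mean of 95.0 normalised reads, also passed the filter only through its leukaemia values. Of 19 tested genes that copy, process or maintain mitochondrial RNA and DNA, 16 rose and 3 fell (median 0.43). Pus1, a tRNA pseudouridine synthase gene, was 4.28-fold and the tRNA-processing gene Elac2 2.82-fold higher. Both subunits of the mitochondrial DNA polymerase were lower, Polg2 at 510 ± 54.5 normalised reads in leukaemia and 925 ± 53.7 in myeloid libraries, and Polg at 3373 ± 221 in leukaemia and 4611 ± 570 in myeloid libraries. The log2 difference of Polg was above 0 after quantile normalisation (0.09) and after scaling to the table total (0.19), where Polg2 did not pass (-0.22, limma adjusted p = 0.0556).

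Transcripts of the mitochondrial genome, the messages this ribosome translates, were all higher in leukaemia among the 13 tested (median log2 difference 0.62). Those with the highest log2 differences, mt-Nd1 (45111 ± 8429 in leukaemia and 21658 ± 3724 in myeloid) and mt-Nd2 (27632 ± 4777 in leukaemia and 13303 ± 3258 in myeloid), were both 2.08-fold higher. The groups did not overlap for these, mt-Nd5, mt-Cytb and mt-Co1. They overlapped for mt-Nd3, mt-Nd4, mt-Nd4l, mt-Nd6, mt-Co2, mt-Co3, mt-Atp6 and mt-Atp8, whereas 86.8% of all tested genes did not overlap. The lowest log2 difference was that of mt-Co2 (1.27-fold, limma adjusted p = 0.0335). Of the 79 tested cytosolic ribosomal protein genes, 79 rose and 0 fell, with a median log2 difference of 1.17, above the 0.48 of the mitochondrial set. Many cytosolic ribosomal protein genes have near-identical processed copies that can divide their reads, and the log2 scale is less flattened for abundant genes. The distance between the medians was not tested. Median folds were 2.35 for the cytosolic and 1.77 for the mitochondrial ribosomal protein genes.

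**Figure D5:**
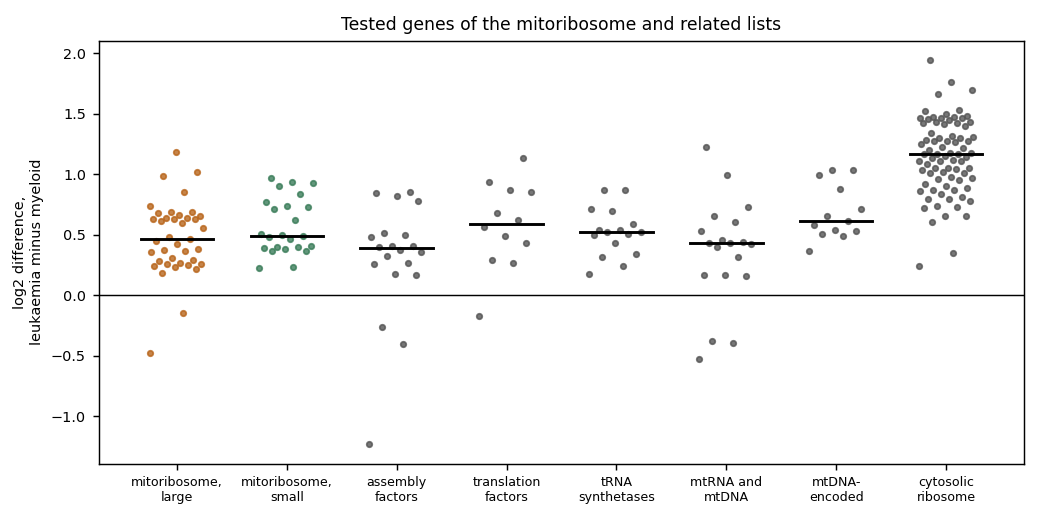
Log2 difference, leukaemia minus myeloid, of each tested gene (points) and the median (bar) for the large and small subunits of the mitochondrial ribosome and 6 related lists. Mitoribosomal medians of 0.47 and 0.49 lie near those of translation factors (0.59) and tRNA synthetases (0.52), and the cytosolic ribosomal proteins lie highest at 1.17.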

How the data were processed

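The authors deposited 1 table on a log2 scale, with variance-stabilised normalised values of 10141 genes in 10 libraries, which the labels' protocols say were made with a NEBNext Ultra kit. The submitters' processing notes name HISAT2 (versions 2.0.4 and 2.2.1) and DESeq2. The genome build, annotation, read counter, strand setting and gene filter are not given in the sources used here. The row order nearly followed the limma p-values found here, so shares over all tested genes describe this table and not all expressed genes. All libraries share a lowest value of 8.1823, which stands for 0 reads. Assuming the parametric form of the transformation, it was inverted, and up to 300 reads 100.0% of low values in each library were whole multiples of 1 read within 0.1 read. This gave reads and size factors. Depth is thus known for these genes only, and precision for genes with few reads is limited by counting.

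Genes with a mean of all 10 libraries more than 1 log2 unit over that lowest value (about 145 normalised reads, 8079 genes) were tested with limma 3.58.1 in R 4.3.3 with a trended prior variance, two-sided, with Benjamini-Hochberg adjustment over all of them at 0.05. A gene high in 1 group could pass this filter although its mean in the other group lay below it. The Benjamini-Hochberg adjustment runs over genes of a table that may itself be selected for difference, so adjusted p-values may be too small. Results with adjustment over 55341 annotated genes are given below. Lists were counted, not tested. Lengths and exon overlaps came from GENCODE M21 (GRCm38), which may not be the authors' annotation, and promoters from RefSeq.

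The members, the 15 lists and the alternatives were chosen with earlier results of these data known. Named members were the 6 highest and 6 lowest log2 differences per subunit, members that were untested, Mrps18 paralogues, Mrps36 and the 3 most abundant per length in leukaemia. From other lists at most 2 higher, 2 lower and the most abundant gene without a call were named. Mrpl11, Mrpl54, Chchd1, Nrf1, Yy1, Pars2, Gatb, Mrps25 and Mrps34 were added after their values were seen, for their role, motif or overlap, and Mrpl47 for its low level. Tfb1m, Mrm2 and Mtrf1 were also added after their values were seen, for a myeloid mean below the filter level.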

Additional observations from a re-analysis of the deposited data

Results flagged for a closer look

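In a group of 5 libraries, 1 library stood apart from its nearest neighbour farther than Dixon's criterion allows in 8 of 128 groups checked over the 64 members, and chance gives about 5% of groups. The named members among them are 4. Mrps27 had 619 normalised reads in leukaemia replicate 1, the lowest, with the next at 820. Mrps10 had 694 in leukaemia replicate 4, the lowest, with the next at 760. Mrpl12 had 580 in myeloid replicate 2, the highest, with the next at 414, and Mrpl22 had 382 in the same library, with the next at 295. That library was the highest of its group for 33 of the 64 members.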

How the results depend on the processing

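Leaving out 1 library at a time gave 60 to 61 members higher and 1 to 2 lower, with a median log2 difference of 0.46 to 0.51, and 1 to 2 large subunit genes lower. Quantile normalisation gave 56 higher and 1 lower in all, 1 lower in the large subunit and a median of 0.43, and lost Mrpl10, Mrpl22, Mrpl34, Mrpl41, Mrpl55 and Mrps31. Adjustment over 55341 annotated genes gave 58 higher and 1 lower, a large subunit gene, and lost Mrpl10, Mrpl22, Mrpl34 and Mrpl41. Leaving out myeloid replicates 2 and 4 gave 61 higher and 1 lower, again a large subunit gene. Voom log2 folds, on a scale that is not flattened, were larger, and their medians also moved with the library scaling. Medians were 0.83 (large 0.73, small 0.86) with the authors' size factors and 0.94 (0.83 and 0.97, 1 lower in all and in the large subunit, without Mrpl10) with TMM factors. The median was 1.48 (1.37 and 1.51, with 0 lower) scaled to the total of the table, where Mrpl10 (0.44) and Mrpl33 (0.0581) reversed. That scaling put the median of all tested genes at 0.43, against -0.21 with the authors' size factors and -0.11 with TMM, and made 67.4% of calls higher, against 49.2%. Members' medians lay 1.05, 1.04 and 1.04 above those of all genes in the same order, and 0.64 on the deposited scale and 0.34 after quantile normalisation. A stricter filter left 32 members, with 30 higher (21 large, 9 small), since fewer were tested. Without members that share exonic bases, chosen after seeing the data, 38 were higher (23 large, 15 small) and 0 lower in all and in the large subunit, whose median was 0.60. That choice leaves out both members that fell, Mrpl10 and Mrpl33. With no filter 62 were higher and 2 lower. Same-numbered libraries were not paired by the labels, and their deviations correlated between -0.02 and 0.32. A replicate block gave 61 higher and 2 lower. The best match was the library of the same number for replicates 2 and 3 and another for replicates 1, 4 and 5. Over the named members, 508 alternative values kept direction and call, 15 lost the call and 2 reversed. The cause of these shifts was not tested.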
